A study of Mus musculus with 7 samples.

Results

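Ephrin-B ligands and their EphB receptors were examined in outflow tracts (OFTs), the vessel that leads out of the embryonic heart, of control and *Gata6 STOP/+* mouse embryos. The members were taken by name from the deposited expression table: the ligand genes *Efnb1*, *Efnb2* and *Efnb3* and the receptor genes *Ephb1*, *Ephb2*, *Ephb3*, *Ephb4* and *Ephb6*. All 8 were present among 14732 listed genes. RNA sequencing was done on OFTs dissected at embryonic day (E) 11.5, in control pools numbered 3, 4 and 5 (labelled wild type; n = 3) and *Gata6 STOP/+* pools numbered 1, 3, 4 and 5 (n = 4). The *Gata6 STOP/+* embryos carried a CRISPR-Cas9 frameshift allele with a premature stop in 1 copy of *Gata6*, in every cell type, on a C57BL/6 background derived from a selected founder. Each library came from pooled OFTs of several embryos, so that values of single embryos and their sex were not resolved. By the study's design text a pool held 4 OFT pairs and each genotype had 3 pools, but 4 *Gata6 STOP/+* pools are labelled, and all 7 pools were used. The study's reagent list names *Mib1* mutant mice for the injections where its methods name C57BL/6 embryos, and the *Mib1* genotype of the pools is not given in the sources used here.

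Ephrin-B ligands are transmembrane proteins that bind EphB receptor tyrosine kinases on neighbouring cells, and signals then pass into both the receptor-bearing and the ligand-bearing cell. Contact of this kind is known to repel or attract migrating cells and to set boundaries between tissues. *Efnb2* and *Ephb4* are best known as an arterial and a venous endothelial gene, and Eph receptors also guide neural crest cells, which populate the OFT.

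The values are CPM, read counts that the authors scaled to a common effective library size. The recovered depth of control replicates 3, 4 and 5 was 20930875, 29035529 and 17783655 reads on listed genes. Replicates 1, 3, 4 and 5 of the *Gata6 STOP/+* group had 28319373, 27519856, 24736761 and 34467710 such reads. From here on, values of the 3 control pools are in the order of replicates 3, 4 and 5, and those of the 4 *Gata6 STOP/+* pools, also called mutant pools, in the order 1, 3, 4 and 5. *Gata6* itself, the targeted gene, had 315, 257 and 286 CPM in the control pools and 268, 203, 219 and 217 CPM in the mutant pools. Replicate 1 was the highest of these and lay above the lowest control pool, so the groups overlapped in that pool. The difference was −0.34 on the log2(CPM + 0.5) scale (standard error, SE, 0.0987; limma adjusted p = 0.389, not past the threshold of 0.05; exact permutation p = 0.114). It was −0.53 with the Y-linked covariate described below (limma adjusted p = 0.169) and −0.42 without *Gata6 STOP/+* replicate 1 (adjusted p = 0.170). Leaving out each pool it ranged from −0.42 to −0.27, the last without control replicate 3 (limma adjusted p = 0.730).

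None of the ligands or receptors differed between genotypes past that threshold. Limma called 0 of 8 members, and 0 of 8 had an unadjusted p under 0.05. Over all listed genes limma called 0%, whereas 1187 genes (8.06%) had an unadjusted p under 0.05. On the same comparison edgeR's quasi-likelihood test called 0 genes, its likelihood ratio test 105 and DESeq2 88, with 0 members called by any of them. In 0 of 8 members were all *Gata6 STOP/+* pools above, or all below, the control pools, against 1248 of all listed genes (8.47%). The estimated difference was above 0 for 3 members and below 0 for 5. Its median was −0.019 over the members and −0.00073 over all listed genes on the log2 scale. The median size regardless of sign was 0.080 for the members and 0.081 for all listed genes, so the family was close to the typical gene in both respects. In these bulk samples, fewer cells of a type and less RNA per cell cannot be told apart.

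**Figure D1:**
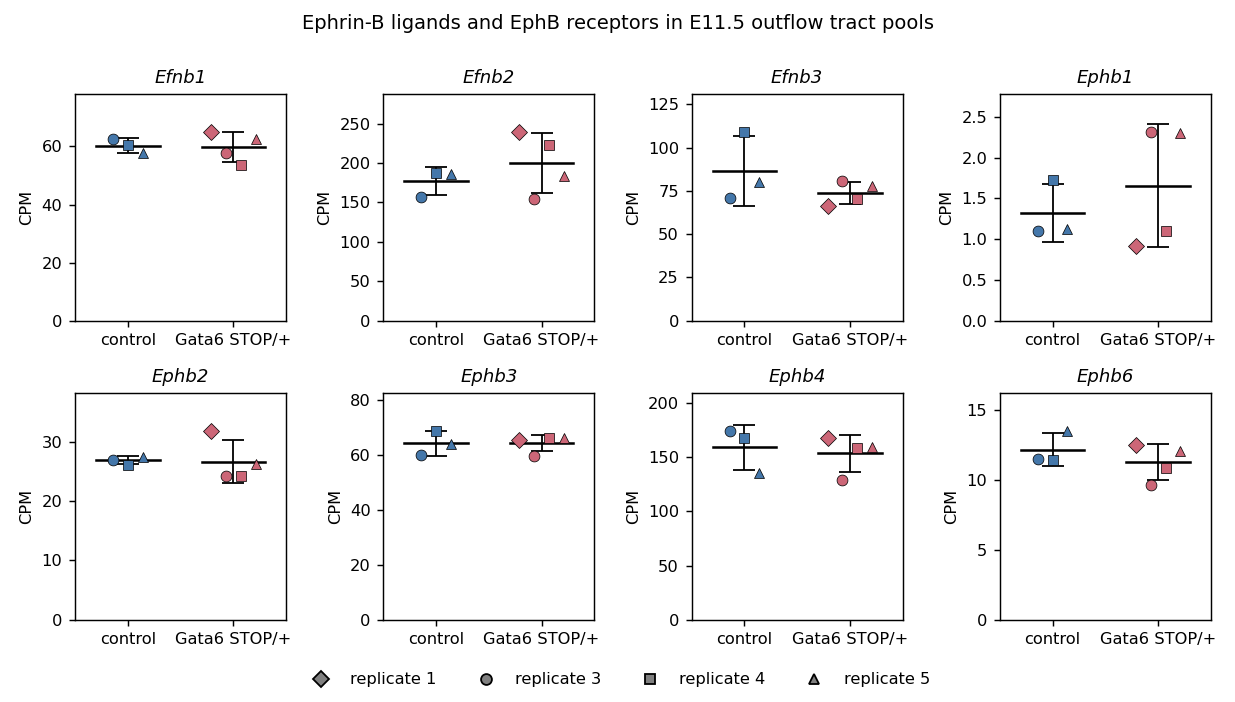
Level of each ligand and receptor gene in CPM (vertical axis, starting at 0) in 3 control (blue) and 4 *Gata6 STOP/+* (red) pools. Points are pools, with the replicate number shown by shape, long lines are means and whiskers are SD. The groups overlap in all 8 panels.

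*Efnb2* encodes the ligand best known from arterial endothelium. It is gene ENSMUSG00000001300, on the minus strand of chromosome 8 from 8617434 to 8661242 in GRCm38. The control pools had 157, 187 and 187 CPM and the mutant pools 240, 155, 223 and 183 CPM. *Gata6 STOP/+* replicates 1 and 4 lay above every control pool, whereas replicate 3 lay below every control pool, so the mutant values spanned the control range on both sides. The means were 177 ± 17.5 CPM (SD, n = 3) and 200 ± 38.4 CPM (SD, n = 4). The log2 difference was 0.16 (SE 0.134, 95% interval −0.13 to 0.46; limma adjusted p = 0.800). The exact two-sided permutation test gave p = 0.571, where the smallest p that 35 partitions of the 7 pools allow is 0.0571. The interval corresponds to between 0.912 and 1.37 times the control level. Adding Y-linked expression as a covariate (mean of 4 genes) turned the sign of the estimate, to −0.015. Leaving out each pool it ranged from 0.068 (without *Gata6 STOP/+* replicate 1) to 0.28 (without replicate 3).

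*Efnb3* encodes a ligand best known from the nervous system. It is gene ENSMUSG00000003934, on the minus strand of chromosome 11 from 69554092 to 69560205. Values of 70.6, 109 and 80.0 CPM were found in the control pools and of 66.2, 80.5, 70.5 and 77.6 CPM in the mutant pools. Control replicate 4 stood above the other 6 pools, which lay between 66.2 and 80.5 CPM in both genotypes. Group means were 86.6 ± 20.1 CPM (SD, n = 3) in the control group and 73.7 ± 6.53 CPM (SD, n = 4) in the mutant group. The log2 difference of −0.21 (SE 0.128, 95% interval −0.50 to 0.071; limma adjusted p = 0.733; exact permutation p = 0.343) rested on that control pool, and was −0.033 without it. With the Y-linked covariate it was 0.091. The same control pool stood above the others for some marker genes as well, of which 4 are named here after their values were seen. *Nppa*, a cardiomyocyte gene, had 174 CPM there and 3.26 to 32.1 CPM in the other 6 pools. The endothelial markers *Npr3* and *Emcn* had 100 and 35.2 CPM there, against at most 46.8 and 18.3 CPM elsewhere. *Gja5*, from the arterial list, had 40.1 CPM there, against at most 25.3 CPM elsewhere. Other genes of the same lists did not stand out there: *Nfatc1* had 91.3 CPM and *Cldn5* 5.80 CPM, against up to 126 and 10.9 CPM elsewhere, and *Myl7*, at 1049 CPM, was second lowest. That pool was the highest for 3 of 9 cardiomyocyte, 4 of 10 endothelial, 3 of 14 arterial and 3 of 6 venous and lymphatic genes. It was the lowest for 6 of 7 erythroid genes. The part of all these genes in the *Efnb3* level was not tested.

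*Efnb1* encodes a ligand whose gene is on the X chromosome. It is gene ENSMUSG00000031217, on the plus strand from 99136130 to 99148991. The control pools had 62.7, 60.4 and 57.7 CPM and the mutant pools 65.1, 57.7, 53.7 and 62.5 CPM. The highest and the lowest pool were both *Gata6 STOP/+* pools, and the control values lay between them. Mean levels were 60.3 ± 2.52 CPM (SD, n = 3) and 59.8 ± 5.09 CPM (SD, n = 4). The log2 difference was −0.015 (SE 0.0750, 95% interval −0.18 to 0.15; limma adjusted p = 0.977), which corresponds to between 0.882 and 1.11 times the control level. It was −0.037 with the Y-linked covariate (adjusted p = 0.936).

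The pools differed in sex-linked transcripts. *Xist*, the RNA of the inactive X chromosome, had 362, 662 and 507 CPM in the control pools. The mutant pools had 157, 539, 1.30 and 197 CPM of it. The 4 Y-linked genes *Ddx3y*, *Eif2s3y*, *Kdm5d* and *Uty* summed to 68.4 ± 26.9 CPM in control pools and 136 ± 45.7 CPM in *Gata6 STOP/+* pools. Replicate 4, where *Xist* was near 0, had the highest Y-linked sum, 174 CPM, and the lowest *Efnb1* level. Replicate 1, with the next highest Y-linked sum (158 CPM), had the highest *Efnb1* level. Control replicate 4, where *Efnb3* was highest, had the lowest Y-linked sum, 39.9 CPM, and the highest *Xist* level. The part of the mix of sexes in these levels was examined only through the covariate. The Y-linked sums were 93.4, 39.9 and 71.8 CPM in the control pools and 158, 70.4, 174 and 140 CPM in the mutant pools. Only *Gata6 STOP/+* replicate 3 lay within the control range. Y-linked expression thus went largely with genotype, so the mix of sexes and genotype can hardly be told apart. Estimates with the covariate are therefore not genotype differences freed of sex.

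*Ephb4* encodes the receptor best known from venous endothelium. It is gene ENSMUSG00000029710, on chromosome 5 (plus strand) from 137350109 to 137378669. Values of 174, 168 and 136 CPM were found in the control pools and of 168, 129, 158 and 159 CPM in the mutant pools. Control replicate 5 and *Gata6 STOP/+* replicate 3 were the lowest, so that each genotype had a low pool. The means were 159 ± 20.8 CPM (SD, n = 3) and 153 ± 17.0 CPM (SD, n = 4), with a log2 difference of −0.052 (SE 0.105, 95% interval −0.28 to 0.18; limma adjusted p = 0.929; exact permutation p = 0.629). The estimate was −0.19 with the Y-linked covariate (adjusted p = 0.694) and −0.16 without control replicate 5, where the groups did not overlap. It turned to 0.018 without control replicate 3 and to 0.030 without *Gata6 STOP/+* replicate 3. *Ephb4* shares 33 exonic bases with *Zan* on the opposite strand, which is not among the listed genes.

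*Ephb3* encodes a receptor that binds all ephrin-B ligands. It is gene ENSMUSG00000005958, on chromosome 16 (plus strand) from 21204755 to 21223305. The control pools had 59.9, 68.9 and 64.2 CPM and the mutant pools 65.6, 59.8, 66.1 and 66.1 CPM. *Gata6 STOP/+* replicates 1, 4 and 5 lay within the control range and replicate 3 lay just under it. The highest pool was 1.15 times the lowest, the smallest such ratio among the members. The log2 difference was 0.0028 (SE 0.0677, 95% interval −0.15 to 0.15; limma adjusted p = 0.993), or between 0.903 and 1.11 times the control level.

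*Ephb2*, a receptor known for its part in axon guidance, is gene ENSMUSG00000028664, on the minus strand of chromosome 4 from 136647539 to 136835988. Values of 27.0, 26.2 and 27.5 CPM were found in the control pools and of 31.9, 24.2, 24.2 and 26.3 CPM in the mutant pools. The control pools were close together, and *Gata6 STOP/+* replicate 1 lay above them and replicates 3 and 4 below. The log2 difference was −0.023 (SE 0.0986, 95% interval −0.24 to 0.19; limma adjusted p = 0.971), and −0.12 with the Y-linked covariate (adjusted p = 0.813).

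*Ephb6* encodes a family member whose kinase domain lacks catalytic activity. It is gene ENSMUSG00000029869, on chromosome 6 (plus strand) from 41605482 to 41620509. The control pools had 11.5, 11.4 and 13.5 CPM and the mutant pools 12.5, 9.64, 10.9 and 12.1 CPM. Control replicate 5 was the highest pool and *Gata6 STOP/+* replicate 3 the lowest, with the rest mixed between them. The log2 difference was −0.11 (SE 0.114, 95% interval −0.36 to 0.14; limma adjusted p = 0.845). With the Y-linked covariate it was −0.25 (adjusted p = 0.644). It shrank to −0.032 without control replicate 5 and to −0.038 without *Gata6 STOP/+* replicate 3, and reached −0.16 (without *Gata6 STOP/+* replicate 1).

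*Ephb1* was near the limit of the table. It is gene ENSMUSG00000032537, on the minus strand of chromosome 9 from 101922128 to 102354693. The control pools had 23, 50 and 20 reads of it, or 1.10, 1.73 and 1.12 CPM. The mutant pools had 26, 64, 27 and 79 reads, or 0.912, 2.32, 1.10 and 2.30 CPM. *Gata6 STOP/+* replicates 3 and 5 were the highest, whereas replicates 1 and 4 were as low as the lowest control pools. Counting error alone is 22.4% for 20 reads. The interval of the log2 difference was wide, from −0.43 to 0.82 around 0.19 (SE 0.282; limma adjusted p = 0.895). With the Y-linked covariate the estimate was 0.73 (adjusted p = 0.529), and leaving out each pool it ranged from 0.043 to 0.37. On this scale, with 0.5 added to each value, the interval does not separate 0.743 times control from 1.76 times control. For a gene this low the added constant shrinks the difference. DESeq2, on recovered reads, gave a log2 difference of 0.32 (SE 0.419; adjusted p = 0.969). The gene shares 152 exonic bases with *Gm26846* on the opposite strand, which is not among the listed genes.

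**Figure D2:**
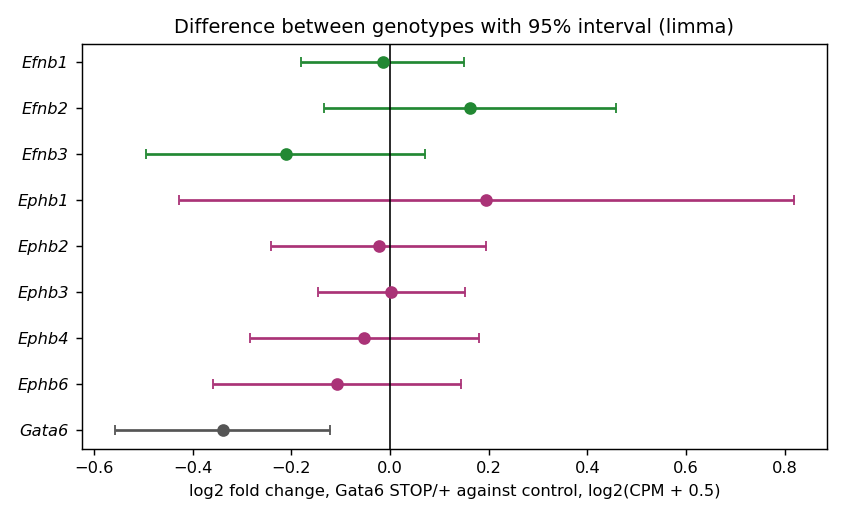
Difference between *Gata6 STOP/+* and control pools on the log2(CPM + 0.5) scale (horizontal axis) for the 3 ligand genes (green), the 5 receptor genes (purple) and *Gata6* (grey). Points are limma estimates and bars are 95% intervals for each gene alone, without adjustment for the number of genes. The interval spans 0 for all 8 members and is widest for *Ephb1*.

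To compare genes with each other, CPM was divided by the length of each gene's annotated exons in kilobases (CPM per kb). Over the 7 pools, the mean level per length was highest for *Ephb4* (33.6 CPM per kb), followed by *Efnb2* (27.7), *Efnb3* (24.9) and *Efnb1* (17.4 CPM per kb). *Ephb3* followed at 9.69 CPM per kb, then *Ephb6* at 3.08, *Ephb2* at 2.12 and *Ephb1* at 0.216 CPM per kb. The first 3 did not separate beyond their spread over pools. The ranges of *Ephb4* and *Efnb2* per kb overlapped, although *Ephb4* was the higher in 7 of 7 pools, and *Efnb2* exceeded *Efnb3* in 5 of 7 pools. From *Efnb3* downward, the ranges of neighbouring genes were apart. The order at the top depended on the length used: with the longest annotated transcript in place of all exons, *Ephb4* exceeded *Efnb2* in 1 of 7 pools.

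*Ephb4* held most of the summed receptor level per length, with a mean share of 68.9% (range 65.2% to 72.4% over pools). The share of *Ephb3* was 19.98%, that of *Ephb6* 6.35%, that of *Ephb2* 4.36% and that of *Ephb1* 0.451%. The ligand level per length was divided more evenly, with 39.5% for *Efnb2*, 35.5% for *Efnb3* and 24.9% for *Efnb1*. By genotype, the share of *Ephb4* was 69.1 ± 3.61% (SD, n = 3) in control and 68.7 ± 1.32% (SD, n = 4) in *Gata6 STOP/+* pools. The share of *Efnb2* was 36.7 ± 2.47% (SD, n = 3) and 41.7 ± 5.86% (SD, n = 4). The ranges of both shares overlapped between genotypes.

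The summed ligand level per length was 70.5 ± 8.06 CPM per kb in control and 69.7 ± 4.13 CPM per kb in *Gata6 STOP/+* pools. The summed receptor level was 49.6 ± 4.12 and 48.1 ± 4.53 CPM per kb. The ligand sum exceeded the receptor sum in 7 of 7 pools with either measure of length. The ratio of *Efnb2* to *Ephb4* per kb was 0.608, 0.756 and 0.932 in the control pools. The mutant pools had ratios of 0.968, 0.814, 0.952 and 0.779. The groups overlapped, with a wider spread among the control pools.

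**Figure D3:**
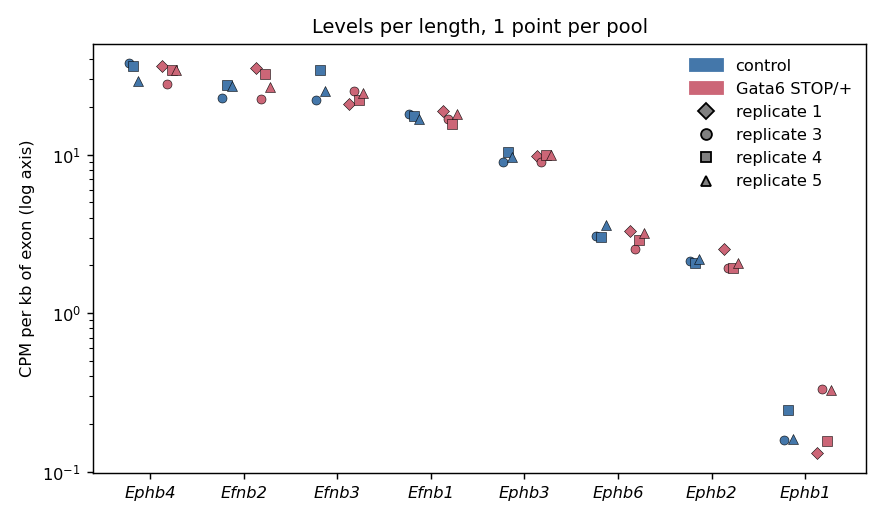
Level per length (CPM per kb of annotated exon, log axis) of the 8 genes, ordered by their mean, in control (blue) and *Gata6 STOP/+* (red) pools. Each point is 1 pool, with the replicate number shown by shape. *Ephb4*, *Efnb2* and *Efnb3* overlap at the top, and *Ephb1* lies far below the other receptor genes.

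The members did not vary as a block across pools. Over 28 pairs of members, Pearson's r of log2(CPM + 0.5) over the 7 pools ranged from −0.56 (*Ephb1* and *Ephb2*) to 0.75 (*Efnb1* and *Ephb2*), with a median of 0.20. *Gata6 STOP/+* replicate 1 was the highest pool for 3 members and replicate 3 the lowest for 4. Cardiomyocyte markers (9 of 9 listed, *Myh7* the most abundant) summed to 18070 CPM in *Gata6 STOP/+* replicate 1 and to 22125 to 25600 CPM in the other pools. *Gata6 STOP/+* replicate 3 had the highest cardiomyocyte sum, 25600 CPM. It also had the lowest sum of cushion and pharyngeal mesenchyme markers, 3100 CPM against 3455 to 4263 CPM in the other pools. Its macrophage sum, 89.1 CPM, was the highest. The part of these markers in the member levels of both pools was not tested.

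For each member with a mean of at least 5 CPM, the genes with the most similar pattern over the 7 pools were sought among 11613 genes. The pattern of *Efnb1* was most like those of *Kdm3b* (r = 0.98) and *Sae1* (r = 0.97, n = 7 pools for all values here). That of *Efnb2* was closest to *Tspan6* and *Slc24a2* (both r = 0.99), and that of *Efnb3* to *Cpt2* and *Mest* (both r = 0.995). The 2 last-named genes had their highest value in control replicate 4, as *Efnb3* did: *Mest* was at 2045 CPM there and at 701 to 1021 CPM in the other 6 pools. Among the receptors, *Ephb2* was most like *Btg1* (r = 0.98) and *Snn* (r = 0.97), and *Ephb3* most like *Nin* (r = 0.99) and *Slc30a5* (r = 0.95). *Ephb4* was most like *Fbxl12* (r = 0.99) and *Nynrin* (r = 0.98), and *Ephb6* most like *Gm5616* and *Dnajc14* (both r = 0.96). Between 16 and 88 genes exceeded r = 0.9 for a given member, so these names are the nearest of many.

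Genes that act with ephrin-B and EphB proteins, and genes of arterial or venous identity, were taken from 6 lists. Of 77 genes, 74 were listed, and limma called 0 of them. An unadjusted p under 0.05 was found for 10 (13.5%; 7 higher and 3 lower in *Gata6 STOP/+* pools), against 8.06% of all listed genes. The groups did not overlap for 9 (12.2%), against 8.47%. The median log2 difference was 0.013, against −0.00073 over all listed genes.

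Partners of the ephrin-B cytoplasmic tail (14 of 15 listed) included 0 genes (0%) without overlap, against 8.47% of all listed genes, and 1 (7.14%) with an unadjusted p under 0.05, against 8.06%. *Rgs3*, which links ephrin-B to G protein signalling, was at 117 ± 5.33 CPM (SD, n = 3) in the control group and 105 ± 8.16 CPM (SD, n = 4) in the mutant group (limma adjusted p = 0.620). *Grip1*, a PDZ-domain adaptor, was at 18.2 ± 2.22 and 16.03 ± 0.968 CPM (adjusted p = 0.722). For both genes the groups overlapped.

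Effectors of the EphB kinases (30 of 31 listed) summed to more in every *Gata6 STOP/+* pool (5226 to 5437 CPM) than in any control pool (5141 to 5206 CPM). The most abundant of them, *Grb10*, had a mean of 2027 CPM and the separation rested on it. Without *Grb10*, a comparison chosen after seeing the data, the sums overlapped, at 3145 to 3264 CPM in control and 3201 to 3330 CPM in mutant pools. In the list, 3 of 30 genes (10%; *Grb10*, *Acp1* and *Afdn*, named after their values were seen) did not overlap between groups, against 8.47% of all listed genes. Limma called 0 genes of the list. An unadjusted p under 0.05 was found for 1 of 30 (3.33%), against 8.06%, and the median log2 difference was 0.013. *Kalrn*, an exchange factor that acts on the cytoskeleton, was at 71.2 ± 1.12 and 82.2 ± 10.2 CPM (adjusted p = 0.620), and *Rhoa*, a small GTPase, at 349 ± 12.4 and 370 ± 11.2 CPM (adjusted p = 0.762). For both of these genes the groups overlapped. The log2 difference of *Kalrn* was 0.20, and 0.026 with the Y-linked covariate (limma adjusted p = 0.954).

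A further list held genes for proteases that cleave ephrin-B and EphB proteins and for subunits of gamma-secretase (8 of 9 listed). Limma called 0 of these genes. An unadjusted p under 0.05 was found for 2 (25%) against 8.06% of all listed genes, and 1 (12.5%) did not overlap between groups against 8.47%. This was *Adam10*, which had 235, 259 and 248 CPM in the control pools. The mutant pools had 306, 266, 284 and 298 CPM. All *Gata6 STOP/+* pools lay above all control pools, with a log2 difference of 0.22 that did not pass the threshold (SE 0.0660; limma adjusted p = 0.398). *Psen2*, a subunit of gamma-secretase, was at 15.4 ± 1.60 and 12.7 ± 0.768 CPM, with overlapping groups (adjusted p = 0.525).

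Limma also called 0 of the 2 A-class genes whose products bind across classes, and 0 (0%) had an unadjusted p under 0.05, against 0% and 8.06% of all listed genes. *Epha4*, a receptor for ephrin-B ligands, was at 28.2 CPM in *Gata6 STOP/+* replicate 1 and between 14.3 and 19.5 CPM in the other 6 pools (log2 difference 0.24, SE 0.190; limma adjusted p = 0.791). The difference was 0.041 without that replicate and 0.054 with the Y-linked covariate. *Efna5*, a ligand that also binds EphB2, was at 62.2 ± 7.91 CPM in the control group and 62.2 ± 8.32 CPM in the mutant group (adjusted p = 0.998).

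In the arterial list (14 of 14 listed), limma called 0 genes, 3 (21.4%) had an unadjusted p under 0.05 against 8.06% of all listed genes, and 2 (14.3%) did not overlap between groups against 8.47%. *Cxcr4*, a chemokine receptor, was at 15.5 ± 1.90 and 19.7 ± 1.23 CPM (adjusted p = 0.366), and *Hey2*, a Notch target, at 84.8 ± 8.15 and 97.1 ± 3.08 CPM (adjusted p = 0.513). The summed arterial level was highest in *Gata6 STOP/+* replicates 1 and 4 (1321 and 1320 CPM), the pools in which *Efnb2* was also highest. The same pools had the highest Y-linked sums, 158 and 174 CPM. *Unc5b* was the most abundant gene of the list, at a mean of 504 CPM. Endothelial markers (10 of 10 listed, *Tek* the most abundant) summed to 935 ± 150 CPM in the control group and 987 ± 87.1 CPM in the mutant group. Their part in the *Efnb2* and *Ephb4* levels was not tested.

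In the venous and lymphatic list (6 of 6 listed), limma called 0 genes. An unadjusted p under 0.05 was found for 3 (50%) against 8.06% of all listed genes, and 3 (50%) did not overlap between groups against 8.47%. These went both ways, 2 higher and 1 lower in *Gata6 STOP/+* pools, and the list's median log2 difference was −0.013. *Aplnr*, named after its values were seen, was at 9.42 ± 0.258 and 11.9 ± 0.489 CPM without overlap (limma adjusted p = 0.351). For *Nr2f2*, *Prox1* and *Lyve1* the groups overlapped. *Nrp2*, a semaphorin and VEGF co-receptor, had 71.2, 82.5 and 69.6 CPM in the control and 110, 90.7, 91.8 and 98.4 CPM in the mutant pools. Its log2 difference was 0.39 (SE 0.0834; limma adjusted p = 0.215), and it passed the threshold in edgeR's likelihood ratio test (adjusted p = 0.0102) and in DESeq2 (adjusted p = 0.0102) but not in edgeR's quasi-likelihood test (adjusted p = 0.240). Over all alternatives its adjusted p ranged from 0.0102 to 0.592. *Flt4*, a VEGF receptor, was at 26.5 ± 2.84 and 20.3 ± 1.56 CPM, lower in all *Gata6 STOP/+* pools than in all control pools (adjusted p = 0.289).

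The markers of the OFT were present: cushion mesenchyme (8 of 8 listed, *Vcan* the most abundant) summed to 3932 ± 393 CPM in the control group and 3505 ± 323 CPM in the mutant group. Smooth muscle markers (4 of 4) summed to 2617 ± 239 and 2960 ± 421 CPM. The 3 listed neural crest and Schwann precursor markers summed to 93.0 ± 18.6 and 72.3 ± 5.07 CPM. Of the pharyngeal and foregut epithelial markers 2 of 6 were listed, at a sum of 91.7 ± 20.3 and 98.3 ± 15.4 CPM. Neuronal markers (6 of 7 listed, *Tubb3* the most abundant) summed to 61.1 ± 13.2 and 56.2 ± 4.79 CPM, and epicardial and mesothelial markers (5 of 5) to 297 ± 26.1 and 312 ± 45.6 CPM. Erythroid markers ranged from 2395 to 7379 CPM over pools, and macrophage markers from 36.1 to 89.1 CPM.

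The promoter windows of the members were searched for the letters that GATA factors are known to bind. RefSeq windows on GRCm38, from 250 bases before to 50 after the RefSeq gene start, were given for 7 of 8 members, all but *Efnb3*. For *Efnb1*, *Ephb2*, *Ephb3* and *Ephb6* that start differs from the position given above. The *Efnb1* window ends at 99136110, before the start given above at 99136130. The 4 motifs searched, on both strands, were AGATAA as well as AGATAG, then TGATAA as well as TGATAG. Of the 7 windows, 0 held a match, whereas 2615 of 13897 windows of listed genes (18.8%) did. The G and C content was 55.7% for *Ephb1* to 76.3% for *Ephb6*, with a median of 60.7% over windows of listed genes. This says only that these letters are absent from these windows.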

How the data were processed

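RNA was read from OFT pools with a directional library kit. The deposited values are CPM that the authors made with cutadapt, RSEM (GRCm38) and edgeR, after a filter of 1 CPM in 3 or more samples, with TMM scaling. TMM assumes that most genes do not differ, so CPM shows relative levels only. Whether counting used the strand is not given in the sources used here, so reads of overlapping genes on opposite strands could be mixed. Dividing each pool's CPM by its step gave whole reads for 100% of values (tolerance 0.01). RSEM's expected counts need not be whole, and the sources used here do not say whether they were rounded. In 3 pools the smallest value stood for 2, 4 or 6 reads. Read numbers limit precision through counting error only.

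Genes were tested with limma 3.58.1 (trend, two-sided, R 4.3.3) on log2(CPM + 0.5), which understates changes of low genes, with Benjamini-Hochberg adjustment over 14732 genes. Nothing in the labels says the pools came from separate litters, and p-values measure only the spread between pools. Exact permutation tests for 9 genes used scipy 1.17.1. Alternatives were constants of 0.1 and 2, a mean of at least 5 CPM, median-of-ratios rescaling, a replicate block, edgeR 4.0.16 and DESeq2 1.42.0 on recovered reads, a Y-linked covariate and leaving out each pool. The limma (with and without block), edgeR and DESeq2 fits were tested on simulated data.

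Named genes were the members, *Gata6*, *Epha4*, *Efna5*, from each other pathway list the called genes or else the 2 with the smallest p, and for each member with a mean of at least 5 CPM the 2 genes with the highest r. *Mest* values, *Zan*, *Gm26846*, marker genes and some other genes of the lists, such as *Grb10* and *Aplnr*, were given beside these. Members and lists were chosen with earlier results of these data known. Positions and lengths come from GENCODE M21, which held 14723 of the identifiers. An item of the marker lists is not reported here. The effector sum without *Grb10* was added after seeing the data.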

Additional observations from a re-analysis of the deposited data

Results flagged for a closer look

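Among 35 genes examined for a pool far from the other *Gata6 STOP/+* pools, with a 95% critical value for the gap relative to the range, 2 had such a pool, and about 5% of groups exceed that value by chance. For *Ephb3*, *Gata6 STOP/+* replicate 3 was at 59.8 CPM, whereas the other 3 pools lay between 65.6 and 66.1 CPM. For *Nin*, the same pool was at 42.7 CPM and the other 3 lay between 46.5 and 46.8 CPM. *Nin* was named because its pattern was the most like that of *Ephb3*, so these values are not independent of each other. Control replicate 3 was similarly low for *Ephb3*, at 59.9 CPM, and the control group of 3 pools was not examined in this way.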

How the results depend on the processing

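Limma, edgeR and DESeq2 called 0 members under every alternative run. In limma, an unadjusted p under 0.05 was found for *Efnb2* when *Gata6 STOP/+* replicate 3 was omitted (adjusted p = 0.473), *Efnb3* without control replicate 3 and *Ephb1* with the Y-linked covariate; over all alternatives the adjusted p of any member was at least 0.473. The number of all listed genes called was 0 and rose to 1 with a constant of 0.1, 105 with edgeR's likelihood ratio test, 88 with DESeq2 and 6 with the Y-linked covariate. Leaving out a pool gave 0 to 13 calls: 13 without control replicate 4, 2 when *Gata6 STOP/+* replicate 3 was omitted and 1 when *Gata6 STOP/+* replicate 1 was. Leaving out a pool gave 0 to 1 members without overlap between groups, the 1 being *Ephb4*, lower without control replicate 5, where 16.2% of all listed genes did not overlap. The cause was not tested. *Ephb1* could not be fitted with a mean of at least 5 CPM.

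The same replicate numbers did not pair the pools: deviations of same-numbered pools had correlations of −0.0706, −0.261 and −0.0148 over 11627 genes. *Gata6 STOP/+* replicate 1 has no control of its number and adds nothing to the blocked contrast, so the block also leaves out that pool. The block with this loss gave 14 calls in limma and 118 in edgeR's likelihood ratio test, where *Gata6* passed the threshold (adjusted p = 0.0164) and *Nrp2* did not (adjusted p = 0.0529). In limma the blocked log2 differences equal those without that pool, *Gata6* included (−0.42; adjusted p = 0.213 with the block and 0.170 without that pool). Limma called 1 gene without that pool and no block, against 14 with the block. EdgeR was not run without that pool, so the share of the block itself was not separated there. The blocked log2 difference turned for *Ephb3* (−0.0061 in limma, −0.0065 in edgeR), *Kdm3b* (−0.017 and −0.018) and *Btg1* (−0.040 and −0.040).

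Of 594 log2 differences recomputed for 35 named genes, 543 kept their direction and side of the threshold, 48 changed sign and 3 newly passed it. Of the 135 for members, 120 and 15 were in the first 2 classes. With the Y-linked covariate the values that turned were −0.015 (*Efnb2*), 0.091 (*Efnb3*), −0.0039 (*Kdm3b*), 0.052 (*Cpt2*), 0.19 (*Mest*), −0.032 (*Btg1*) and 0.0053 (*Nin*). *Efna5* turned to 0.0013 in edgeR's quasi-likelihood test, 0.00075 in its likelihood ratio test and 0.0014 in DESeq2. For genes with a change of sign when a pool was left out, the values over all such fits ranged from −0.057 to 0.035 for *Efnb1*, −0.11 to 0.019 for *Ephb2*, −0.047 to 0.053 for *Ephb3* and −0.16 to 0.030 for *Ephb4*. The ranges were −0.098 to 0.085 for *Efna5*, −0.017 to 0.042 for *Kdm3b*, −0.019 to 0.0018 for *Sae1*, −0.040 to 0.028 for *Btg1* and −0.062 to 0.015 for *Snn*. They were −0.070 to 0.051 for *Nin*, −0.085 to 0.014 for *Slc30a5*, −0.052 to 0.014 for *Fbxl12* and −0.088 to 0.056 for *Nynrin*.

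With the longest transcript as length, the shares were 22.3% for *Efnb1*, 47.7% for *Efnb2*, 30.0% for *Efnb3*, 24.6% for *Ephb3* and 64.8% for *Ephb4*, each moved by more than the SD over pools. The other shares moved by less. *Ephb1* had the fewest reads of the members, 20 to 79 per pool.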
